A study of Homo sapiens with 4 samples.

Results

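The RNAs described here are 9 long non-coding RNAs: ESRG, LNCPRESS1, LINC00458, LINC00678, LINC01356, LINC01405, MIR205HG, NEAT1 and MALAT1. They were picked by symbol from the 36601 features of the count tables, as RNAs known from pluripotent cells or varying between these libraries, so their levels are a description and carry no test. The cells were H9, a human embryonic stem cell line, and each unique molecular identifier (UMI) of the 10x Chromium 3′ assay marked 1 captured RNA molecule. The 4 libraries were SIRT1 knockout (KO, labelled as a deletion of Sirtuin 1) at day 6, wild type (WT) at day 6, KO at day 0 and WT at day 0 of a differentiation protocol towards dopaminergic neurons. Each group was 1 library, and the sources used here do not say whether the KO line was 1 clone.

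Long non-coding RNAs are transcripts with little or no coding sequence that act, where a role is known, as RNA. ESRG is transcribed from a long terminal repeat of the HERV-H family of endogenous retroviruses and is among the most specific RNAs of human pluripotent cells. LNCPRESS1 is an RNA that keeps the deacetylase SIRT6 from chromatin in human embryonic stem cells. LINC00458, also called LncRNA-ES3 or HBL1, is another RNA of human pluripotent cells, described as a restraint on cardiac differentiation. MIR205HG is the host transcript of miR-205, a microRNA of epithelial cells. NEAT1 is the scaffold of paraspeckles, and MALAT1 is an abundant RNA of nuclear speckles. LINC01405 stands in RefSeq under the name VHRT. For LINC00678 and LINC01356 no role is stated here.

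In the GENCODE annotation of GRCh38 the 9 genes lie on 6 chromosomes. ESRG (ENSG00000265992) spans chr3:54632122-54639857 on the minus strand, inside the coding gene CACNA2D3 of the opposite strand. LNCPRESS1 (ENSG00000232301) spans chr7:101299578-101301346 on the plus strand. LINC00458 (ENSG00000234787) spans chr13:54115783-54132866 on the minus strand. LINC00678 (ENSG00000254934) spans chr11:27617626-27634627 on the minus strand and overlaps BDNF-AS of the opposite strand. LINC01356 (ENSG00000215866) spans chr1:112820170-112850643 on the minus strand and overlaps the long non-coding gene AL390729.1 of the opposite strand. LINC01405 (ENSG00000185847) spans chr12:110936585-110958208 on the plus strand. MIR205HG (ENSG00000230937) spans chr1:209428820-209432838 on the plus strand and contains MIR205. NEAT1 (ENSG00000245532) spans chr11:65422774-65445540 and MALAT1 (ENSG00000251562) spans chr11:65497688-65506516, both on the plus strand and 52148 bases apart.

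The assay is designed to capture RNA at its 3′ end. The last 60 bases of an annotated transcript of 6 of the genes are therefore shown as GENCODE gives them on GRCh38. Capitals mark the AATAAA or ATTAAA signal for cleavage and polyadenylation, searched on the transcript strand only.
ESRG-201, chr3:54632122-54632181, minus strand: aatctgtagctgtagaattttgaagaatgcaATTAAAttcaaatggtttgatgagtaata
LNCPRESS1-201, chr7:101301287-101301346, plus strand: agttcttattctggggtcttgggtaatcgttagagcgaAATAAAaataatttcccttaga
LINC00678-201, chr11:27617626-27617685, minus strand: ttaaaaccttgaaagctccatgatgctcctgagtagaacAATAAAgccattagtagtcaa
LINC01405-201, chr12:110937392-110937451, plus strand: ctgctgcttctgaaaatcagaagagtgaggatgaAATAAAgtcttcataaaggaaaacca
NEAT1-201, chr11:65426398-65426457, plus strand: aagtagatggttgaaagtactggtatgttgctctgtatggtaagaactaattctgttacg
MALAT1-202, chr11:65506410-65506469, plus strand: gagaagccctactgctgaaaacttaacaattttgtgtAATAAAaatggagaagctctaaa
A signal stood 21 to 29 bases before the end in ESRG, LNCPRESS1, LINC00678, LINC01405 and MALAT1. None of these letters stood in the window of NEAT1-201, nor in those of LINC00458-201 and MIR205HG-203. NEAT1-201 is a short NEAT1 transcript of 3441 bases, and UMIs counted per gene do not separate it from the long form that builds paraspeckles. MALAT1-202, with 8708 bases and 1 exon, holds an internal run of 13 A, and LINC00458-201 holds one as long. Counts per gene do not show at which site of an RNA a molecule was captured, so UMIs of MALAT1 and NEAT1 are not counts of these ends.

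MIR205HG is shown through the microRNA it carries, whose seed (bases 2 to 8) stands in capitals. The mature sequence is from RefSeq on GRCh38.p14.
hsa-miR-205-5p, chr1:209432166-209432187, plus strand: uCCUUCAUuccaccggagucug
UMIs of MIR205HG count the host transcript and not the processed microRNA.

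Cells were kept at 4000 UMIs or more, 1000 genes or more and at most 20% mitochondrial UMIs. This left 4419 cells in KO at day 6, 5372 in WT at day 6, 7275 in KO at day 0 and 5533 in WT at day 0, with 51424092 to 73451883 UMIs per library. Median UMIs per cell were 13169 in KO and 8590 in WT at day 6, and 8367 in KO and 12645 in WT at day 0. Pairs of libraries shared 5 to 18 cell barcodes. SIRT1 itself had 9.95 UMIs per 1000000 UMIs of the cells (CPM) in KO and 30.2 CPM in WT at day 6, and 7.11 CPM in KO and 32.3 CPM in WT at day 0. The deleted part of SIRT1 is not stated in the labels, so 3′ counts check the label only in part. All 15 pluripotent markers reached 10 CPM in both day 0 libraries. KO and WT cells differed at both days in the share of UMIs from chromosome 20 (ribosomal protein and mitochondrial genes left out). At day 6, 1084 of 4419 KO cells had 3% or more, against 3773 of 5372 WT cells. Under 2.6% were 2847 KO cells and 272 WT cells of day 6. At day 0, 1888 of 7275 KO cells had 3% or more, against 5220 of 5533 WT cells. A size rule was used in place of a test: a ratio of at least 2-fold whose 95% counting interval excluded 1, applied to genes that reached 10 CPM in either library compared. All intervals cover counting error only, and comparisons that share a library are not independent of each other.

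Most of these RNAs fell between day 0 and day 6 in both genotypes, to unequal degrees. ESRG, LNCPRESS1, LINC00458, LINC00678, LINC01356 and MIR205HG were lower at day 6 than at day 0 by the size rule in KO and in WT, at 6 of 9 RNAs in each. The share of all measured genes that were lower was 8.57% of 9368 in KO and 19.4% of 9324 in WT. MALAT1 was higher at day 6 in both genotypes and NEAT1 in WT, where 5.76% of measured genes were higher in KO and 5.94% in WT. Either direction together took 14.3% of genes in KO and 25.4% in WT. Among measured genes of long non-coding types, 18% were lower and 10.8% higher in KO, and 32% were lower and 10.7% higher in WT. These contrasts entered the choice of the RNAs, so nothing is read from the counts. LINC01405 passed the rule in neither genotype. LINC01405, NEAT1 and MALAT1 were thus not lower at day 6 by this rule, while the other 6 were. Under edgeR's TMM scaling the split of calls turned to 687 higher and 607 lower in KO (540 and 803 by totals), and to 1155 higher and 802 lower in WT (554 and 1813 by totals). The calls of members numbered 7 in KO and 8 in WT under both scalings.

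**Figure D1:**
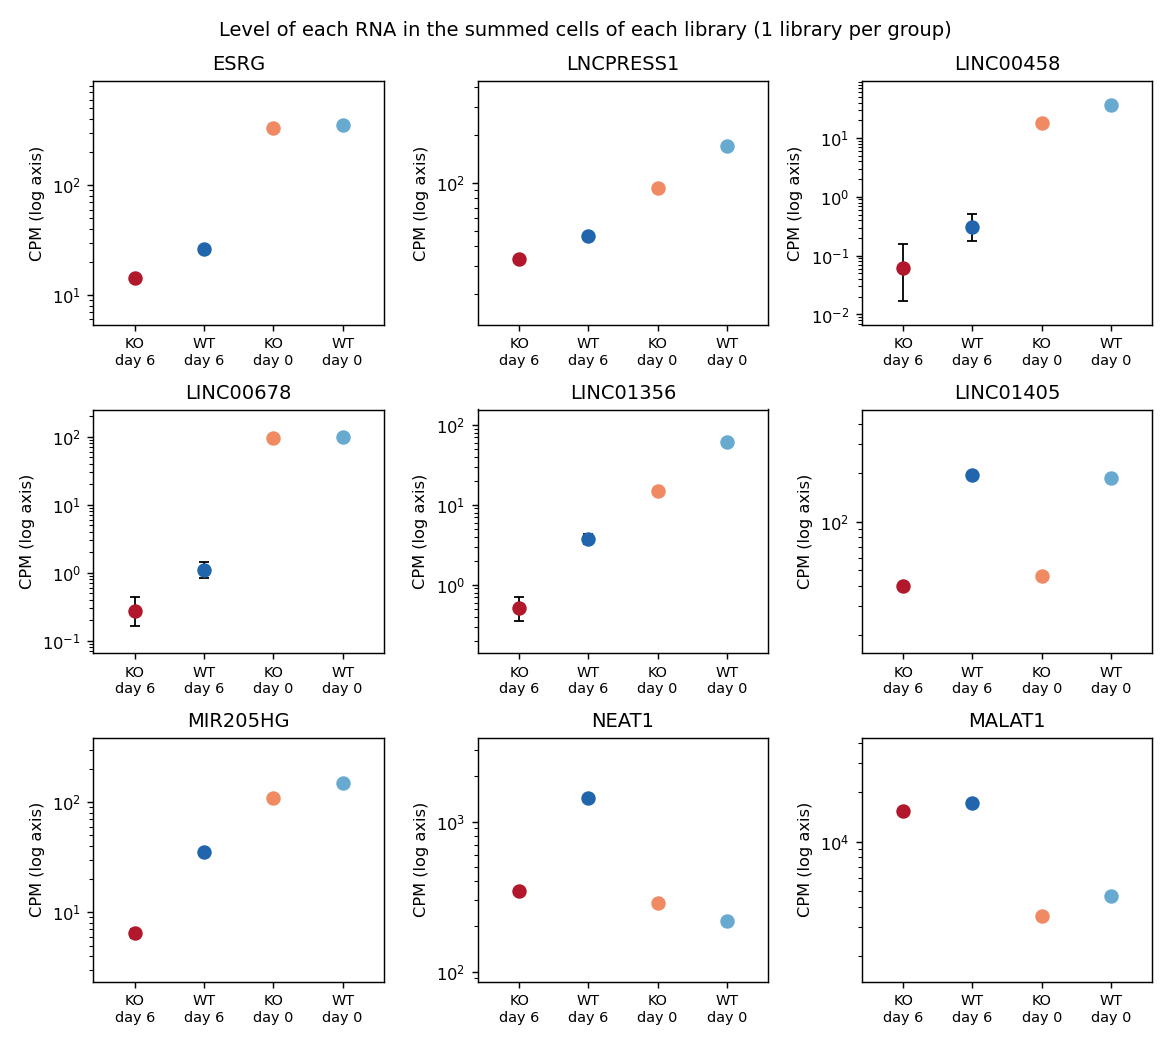
Level of each of the 9 RNAs in the summed cells of each library, in CPM on a log axis, with the exact Poisson 95% interval where it is wider than the point; KO stands left of WT and day 6 left of day 0. ESRG, LNCPRESS1, LINC00458, LINC00678, LINC01356 and MIR205HG are lower at day 6, MALAT1 is higher, LINC01405 separates KO from WT at both days, and NEAT1 stands apart in WT at day 6 at 1433 CPM.

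ESRG was at 14.3 CPM (95% interval 13.4 to 15.3) in KO and 26.4 CPM (25.0 to 27.8) in WT at day 6, against 334 CPM (330 to 338) in KO and 349.7 CPM (345 to 354) in WT at day 0. Both day 0 libraries lay far above both day 6 libraries. It was 23.3-fold lower (21.8 to 24.9) at day 6 in KO and 13.3-fold lower (12.5 to 14.0) in WT. In cells thinned to 4000 UMIs, 2.90% of KO and 5.92% of WT cells had an ESRG UMI at day 6, against 68.6% of KO and 67.4% of WT cells at day 0. Free RNA, taken as 10% of a cell's UMIs, would give 1.08% and 1.28% at day 6 (KO and WT) and 12.5% and 12.6% at day 0. Unthinned, the shares were 7.85% and 11.6% at day 6 and 86.9% and 90.9% at day 0.

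LNCPRESS1 kept more of its day 0 level. It was at 33.6 CPM in KO and 46.4 CPM in WT at day 6, against 92.5 CPM in KO and 172 CPM in WT at day 0. The fall was 2.76-fold (2.63 to 2.89) in KO and 3.70-fold (3.54 to 3.87) in WT. In thinned cells 8.10% of KO and 11.5% of WT cells had a UMI at day 6, against 28.2% and 45.2% at day 0. Free RNA would give 1.54% in KO and 2.24% in WT at day 6, and 3.75% in KO and 6.18% in WT at day 0.

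LINC00678 and LINC00458 came close to the detection limit at day 6. LINC00678 had 18 UMIs (0.275 CPM) in KO and 57 UMIs (1.11 CPM) in WT at day 6, against 93.9 CPM in KO and 97.5 CPM in WT at day 0. That is 341-fold lower (216 to 576) in KO and 88.0-fold lower (67.8 to 116) in WT. LINC00458 had 4 UMIs in KO and 16 UMIs in WT at day 6, against 1303 UMIs (17.7 CPM) in KO and 2625 UMIs (35.8 CPM) in WT at day 0. Its ratio was 289.8-fold lower (113 to 1065) in KO and 115-fold lower (70.6 to 201) in WT. At day 6 the thinned share of cells with LINC00458 was 0.0226% in KO and 0.0931% in WT. Free RNA would give 0.101% in KO and 0.0467% in WT, so the share lay below that value in KO and above it in WT. These free RNA values rest on 5 UMIs in KO and 2 UMIs in WT, and cannot tell background from a low level in cells. In KO the share with LINC00678 was 0.0679%, beside 0.0603% from free RNA. In KO the log2 ratio of LINC00678 was -8.37, and it moved to -9.33 with free RNA subtracted and to -7.20 with KO cells of 3% or more from chromosome 20. That of LINC00458 in KO was -8.01, and it moved to -11.03 and -7.39 under the same settings.

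LINC01356 was at 0.505 CPM in KO and 3.75 CPM in WT at day 6, against 15.0 CPM in KO and 60.5 CPM in WT at day 0. It was 29.8-fold lower (21.1 to 43.5) at day 6 in KO and 16.1-fold lower (14.0 to 18.7) in WT. In WT at day 6 the thinned share of 1.14% stood beside 0.815% from free RNA. With free RNA subtracted, the WT fold at day 6 grew by more than 1.5 times, to a log2 ratio of -4.94, against -4.01 without it.

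MIR205HG was at 6.47 CPM in KO and 35.3 CPM in WT at day 6, against 110 CPM in KO and 150.5 CPM in WT at day 0. It was 16.9-fold lower (15.4 to 18.7) at day 6 in KO and 4.26-fold lower (4.06 to 4.48) in WT. Other epithelial genes were read beside it: ESRP1, a splicing regulator of epithelial cells, was at 0.628 CPM in KO and 1.94 CPM in WT at day 6, against 54.6 CPM and 64.9 CPM at day 0. CDH1 (E-cadherin) and EPCAM also fell in both genotypes. ZEB2, a transcriptional repressor of E-cadherin and a known target of miR-205, was at 105 CPM in KO and 73.5 CPM in WT at day 6, against 6.88 CPM and 5.62 CPM at day 0. ZEB1, its relative, rose 7.95-fold in KO and 9.29-fold in WT. Of 9 genes in this list 5 were measured in each genotype, 2 higher and 3 lower. Among all measured genes 5.76% were higher and 8.57% lower in KO, and 5.94% higher and 19.4% lower in WT.

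MALAT1 was at 15388 CPM in KO and 17113 CPM in WT at day 6, against 3504 CPM in KO and 4649.97 CPM in WT at day 0. It was 4.39-fold higher (4.37 to 4.41) at day 6 in KO and 3.68-fold higher (3.67 to 3.69) in WT. Median mitochondrial shares were 1.61% in KO and 2% in WT at day 6, against 4.81% and 5.44% at day 0. In cells with a mitochondrial share of 1 to 3%, MALAT1 stood at 15510 CPM in KO and 16940 CPM in WT at day 6, against 3977 CPM and 6102 CPM at day 0. By RNA, none of the 15 proteins listed for nuclear speckles passed the size rule in KO, where 14.3% of all genes did. SRSF3 and SRSF2, splicing factors of the speckle, were lower in WT at day 6 (2 of 15, where 19.4% of all genes were lower), with a median log2 ratio of -0.30 for the list and -0.35 for all genes.

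LINC01405 differed between the genotypes and little between the days. It was at 40.0 CPM (38.5 to 41.5) in KO and 193 CPM (189 to 197) in WT at day 6, against 46.2 CPM (44.7 to 47.8) in KO and 187 CPM (183 to 190) in WT at day 0. The 2 KO libraries lay together and far below the 2 WT libraries. Day 6 over day 0 was 0.865 (0.822 to 0.911) in KO and 1.03 (1.01 to 1.06) in WT.

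Among other long non-coding RNAs described in pluripotent cells, 1 of 10 measured was higher and 4 were lower at day 6 in KO, and 2 of 11 were higher and 4 lower in WT. For all measured long non-coding types the shares lower were 18% in KO and 32% in WT, as given above, so the WT count is near its background. LINC00261, an RNA beside the endoderm and floor plate gene FOXA2, was at 46.6 CPM in KO and 49.2 CPM in WT at day 6, against 0.0817 CPM and 0.409 CPM at day 0. LNCPRESS2 was at 0.0972 CPM at day 6 and 11.3 CPM at day 0 in WT. RMST, a neural RNA known to bind SOX2, was at 16.5 CPM in KO and 4.26 CPM in WT at day 6, against 34.0 CPM and 37.8 CPM at day 0. Among widely expressed long non-coding RNAs, EPB41L4A-AS1 was higher at day 6 in both genotypes (2.40-fold in KO and 3.24-fold in WT) and SNHG14 lower. Of 15 pluripotent coding markers, 12 were lower at day 6 in KO and 11 in WT. Among all measured genes 8.57% were lower in KO and 19.4% in WT. POU5F1 was among the lower markers. It was at 182 CPM in KO and 185 CPM in WT at day 6, against 911 CPM and 838 CPM at day 0.

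POU5F1 (OCT4), the central pluripotency factor, was still present at day 6 in part of the cells. Day 6 and day 0 were therefore also set side by side within classes of POU5F1 UMIs after thinning to 4000 UMIs. The classes are ranges of UMIs and not equal POU5F1 levels, so the level within a class may differ between the days. The LNCPRESS1 ratio of day 6 to day 0 differed by POU5F1 class. In KO cells with 1 to 2 POU5F1 UMIs LNCPRESS1 was at 49.9 CPM at day 6 (1053 cells) and 86.2 CPM at day 0 (2012 cells), a ratio of 0.578 (0.493 to 0.676). In KO cells with 3 to 5 POU5F1 UMIs it was at 122 CPM at day 6 (310 cells) and 86.2 CPM at day 0 (3712 cells), a ratio of 1.41 (1.185 to 1.67). In KO cells with 0 POU5F1 UMIs it was at 7.47 CPM at day 6 (3010 cells) and 57.1 CPM at day 0 (267 cells). In WT cells with 3 to 5 POU5F1 UMIs it was at 109.9 CPM at day 6 (398 cells) and 165 CPM at day 0 (2820 cells), a ratio of 0.6645 (0.566 to 0.776). The KO over WT ratio of LNCPRESS1 at day 6 ranged from 0.527 to 1.11 over the POU5F1 classes of 50 cells or more.

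ESRG stayed below its day 0 level within these classes of POU5F1 UMIs. In cells with 3 to 5 POU5F1 UMIs it was at 66.9 CPM in KO and 98.0 CPM in WT at day 6, against 343 CPM in KO and 347 CPM in WT at day 0. In cells with 0 POU5F1 UMIs it was at 1.74 CPM in KO and 4.70 CPM in WT at day 6, against 241 CPM and 212 CPM at day 0. LINC00678 was lower still: in cells with 3 to 5 POU5F1 UMIs, 2 UMIs (1.61 CPM) in KO and 10 UMIs (6.28 CPM) in WT remained at day 6, against 95.7 CPM in KO and 95.7 CPM in WT at day 0. LINC00458 had 0 UMIs in KO and 1 UMI in WT in those day 6 cells, against 18.2 CPM and 37.4 CPM at day 0. MIR205HG, at 13.7 CPM in KO and 48.4 CPM in WT at day 6 against 107 CPM and 152 CPM at day 0, had a ratio of 0.1285 in KO and 0.317 in WT in the same class. The intervals of the ESRG and MIR205HG ratios overlapped in both genotypes, and both lay below that of LNCPRESS1.

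**Figure D2:**
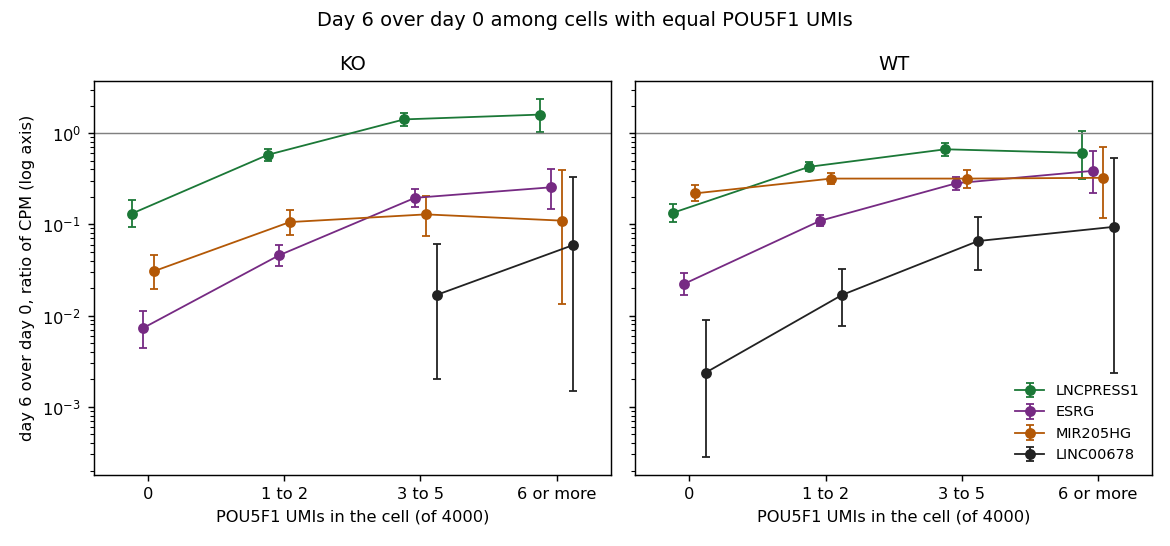
Ratio of CPM at day 6 over day 0 (log axis) for 4 RNAs in KO and in WT. Cells were thinned to 4000 UMIs and grouped into classes of POU5F1 UMIs, which are ranges and not equal POU5F1 levels. Bars are exact conditional binomial 95% intervals, and classes with 0 UMIs at day 6 are not drawn. LNCPRESS1 reaches 1.41 in KO and 0.6645 in WT at 3 to 5 POU5F1 UMIs, while LINC00678 stays at 0.0169 in KO and 0.0656 in WT.

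At day 6 ESRG and LNCPRESS1 were highest in the clusters that kept pluripotent markers. Clusters were found in each library by itself, without the 9 RNAs, and named only from marker lists. KO at day 6 had 2 pluripotent-like clusters (2 and 8, with 688 and 241 cells) and WT had 1 (cluster 1, with 1386 cells). ESRG was at 38.9 CPM and 58.1 CPM in the KO clusters and 57.4 CPM in the WT cluster. It was at 3.41 CPM or less in the other KO clusters of 50 cells or more and at 25.7 CPM or less in the other WT clusters. LNCPRESS1 was at 103 CPM and 101 CPM in the KO clusters and 93.6 CPM in the WT cluster. LINC00678 was at 1.09 CPM in KO cluster 2 and 3.61 CPM in WT cluster 1, while LINC01356 was at 5.77 CPM in WT cluster 1 and 5.78 CPM in WT cluster 6, which was not pluripotent-like. At day 0 the neural progenitor-like clusters (cluster 6 in each library, 249 KO and 198 WT cells) had the lowest ESRG, 129.5 CPM in KO and 85.9 CPM in WT, with LNCPRESS1 at 40.2 CPM in KO and 30.3 CPM in WT, and LINC00678 at 32.1 CPM and 17.7 CPM. POU5F1 in these clusters was at 536 CPM in KO and 337 CPM in WT.

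KO and WT were then set against each other at each day. At day 0 LINC01405, LINC01356 and LINC00458 were lower in KO, 3 of 9, where 0.495% of 9095 measured genes were lower, 0.429% higher and 0.924% either. Among 294 measured genes of long non-coding types 3.06% were lower and 1.7% higher. The median log2 ratio of the 9 was -0.46 and of all genes -0.01. At day 6 MIR205HG, LINC01405 and NEAT1 were lower in KO, 3 of the 6 that were measured, where 1.99% of 8723 genes were lower, 3.11% higher and 5.1% either. Among 257 measured genes of long non-coding types 4.67% were lower and 5.45% higher. Under TMM scaling the split of calls at day 6 turned to 107 higher and 281 lower (271 and 174 by totals), and 4 of the RNAs passed the rule, ESRG being added. A total without ribosomal protein, mitochondrial and MALAT1 counts gave 230 higher and 261 lower. The rule by which the RNAs were picked used these contrasts, so the counts describe the choice.

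**Figure D3:**
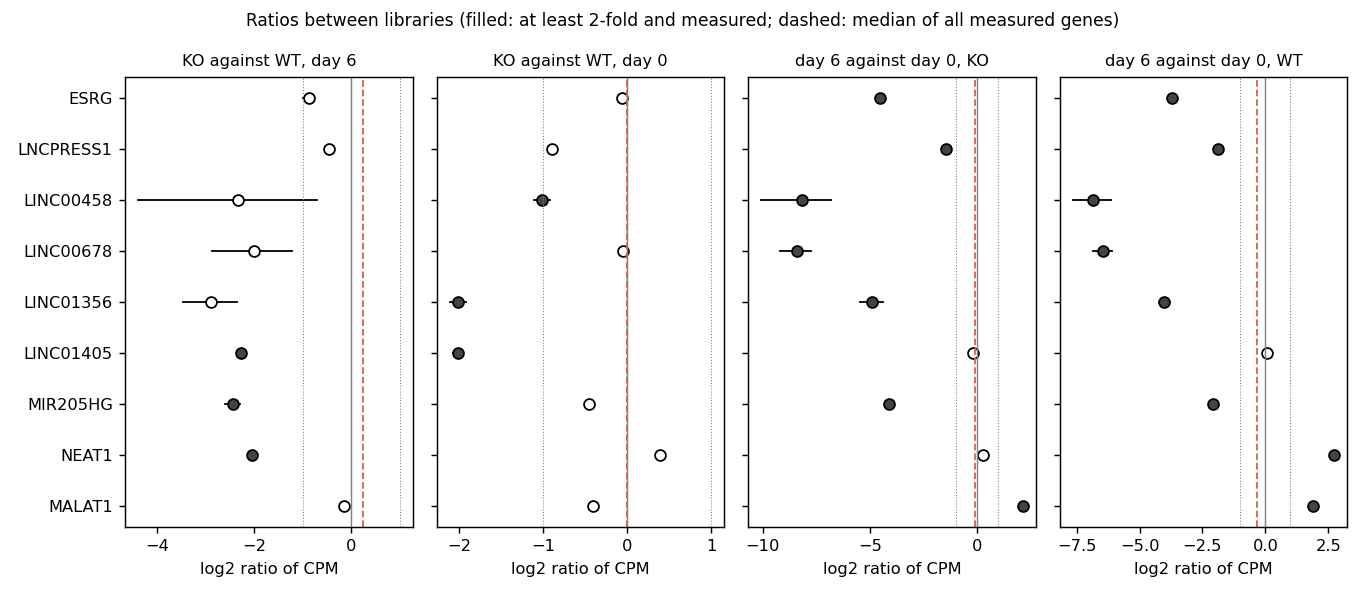
Log2 ratio of CPM of each RNA in the 4 comparisons of libraries, with exact conditional binomial 95% intervals. Filled points passed the size rule, dotted lines mark 2-fold, and the dashed line is the median of all measured genes; LINC01405 is near -2 between KO and WT at both days, and NEAT1 lies right of 0 at day 0 and near -2 at day 6.

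LINC01405 was 4.83-fold lower (4.62 to 5.04) in KO at day 6 and 4.04-fold lower (3.89 to 4.19) at day 0. Of 8136 genes measured at both days, 14 were at least 2-fold lower in KO at both, and LINC01405 and SIRT1 were among them. In thinned cells, 12.6% of KO and 39.0% of WT cells had a LINC01405 UMI at day 6, and 14.1% of KO and 46.4% of WT cells at day 0. Free RNA would give 2.25% in KO and 10.55% in WT at day 6, and 2.18% in KO and 8.71% in WT at day 0. The ratio at day 0 stayed between 0.237 and 0.286 over 4 classes of POU5F1 UMIs and between 0.225 and 0.261 over 3 classes of mitochondrial share. LINC01405 was higher in cells with a larger share of UMIs from chromosome 20 in KO at both days and in WT at day 6. At day 6 it was at 28.2 CPM in KO cells under 2.6%, 61.5 CPM at 2.6 to 3% and 73.1 CPM at 3% or more, against 83.6, 148 and 209 CPM in the same classes of WT cells. At day 0 it was at 24.3, 51.2 and 82.4 CPM in the KO classes, against 158 (38 cells), 181 and 179 CPM in the WT classes. With the KO cells at 3% or more alone, the log2 ratio was -1.49 at day 6 and -1.17 at day 0, against -2.27 and -2.01 with all cells. It passed the size rule at both days in these cells too. The part of the chromosome 20 share in the difference was not tested. LINC01405 itself lies on chromosome 12, and of its 3 measured neighbours within 300000 bases none was lower in KO at either day. TCTN1 among them was higher in KO at day 6 (ratio 2.02, with 19.8 CPM in KO and 9.78 CPM in WT). The share lower among all measured genes was 1.99% at day 6 and 0.495% at day 0, and the share higher at day 6 was 3.11%. At day 6 LINC01405 was highest in KO in cluster 1, led by FN1, LINC00261 and BMP4 (106 CPM). In WT it was highest in cluster 6, led by ANXA1, CRYAB and FLNC (413 CPM).

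LINC01356 was 4.03-fold lower (3.77 to 4.30) in KO at day 0, and LINC00458 was 2.02-fold lower (1.89 to 2.16). At day 6 neither reached 10 CPM. LINC01356 had a UMI in 3.83% of KO and 15.5% of WT thinned cells, and LINC00458 in 3.45% of KO and 6.90% of WT cells. Free RNA would give 0.597% in KO and 3.03% in WT for LINC01356, and 0.709% in KO and 1.65% in WT for LINC00458. LINC00458 was near the 2-fold limit, and it was no longer called under TMM scaling, with free RNA subtracted, with thinned cells or with KO cells of 3% or more from chromosome 20, where its log2 ratio was -0.44. LINC01356 fell to a log2 ratio of -1.36 in those KO cells, against -2.01 in all. AL390729.1, which overlaps it on the other strand, was at 0.354 CPM in KO and 3.13 CPM in WT, and the labels do not state whether counting used strand, so reads of the 2 genes may not be told apart.

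The highest levels of both RNAs were in the same cluster of each library. In KO at day 0, cluster 4, led by AURKA and KIF2C, held 38.2% of LINC00458 and 35.6% of LINC01356 UMIs with 10.3% of the cells, at 71.7 CPM and 55.0 CPM. Few of its 746 cells carried them: 7.91% had a LINC00458 UMI and 6.43% a LINC01356 UMI. In that library a single thinned cell held up to 24 LINC00458 UMIs. In WT at day 0, cluster 8 had 84 cells, 1.52% of the library, and was mesoderm-like: all 8 mesoderm markers were at least 2-fold higher than in other cells, and NTS, LHX1 and APLNR led it. It held 20.5% of the library's LINC00458 UMIs and 18.0% of its LINC01356 UMIs, at 485 CPM and 702 CPM. Of the cells of WT cluster 8, 56.0% had a LINC00458 UMI and 61.9% a LINC01356 UMI. WT cluster 4, led by AC005062.1, AC064802.1 and SCGB3A2 and without a name, held 48.3% and 30.1% with 11.4% of the cells. No KO cluster was mesoderm-like, and summed mesoderm markers were at 9.87 CPM in KO and 15.6 CPM in WT. Summed over cells, LINC01356 was at 133.5 CPM in 251 KO cells with a LINC00458 UMI and 11.6 CPM in the 7024 without. In WT it was at 238 CPM in 382 cells with and 46.0 CPM in 5151 cells without. Of the cells with a LINC00458 UMI, 13.9% in KO and 38.0% in WT also had a LINC01356 UMI. Of the cells without, 3.47% in KO and 13.9% in WT had one. Without the mesoderm-like, mesenchymal-like and neural progenitor-like clusters, an alternative chosen after seeing the data, 2 of the 9 RNAs were still lower in KO at day 0 (3 with all cells). LINC01356 was one and LINC00458 was not.

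**Figure D4:**
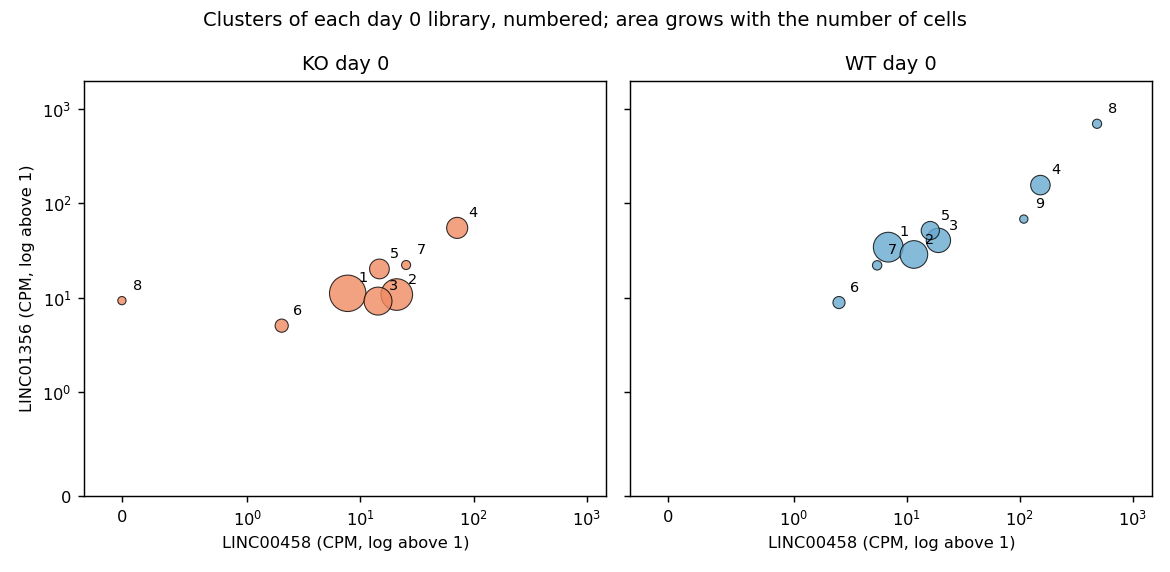
Level of LINC01356 against LINC00458 (CPM of thinned cells, log above 1) in each cluster of 50 cells or more of KO and WT at day 0; numbers name clusters and the area of a point grows with its cells. KO cluster 4 is highest in KO at 71.7 CPM of LINC00458, and WT cluster 8, mesoderm-like, is highest in WT at 485 CPM. A LINC00458 UMI was found in 7.91% of cells of KO cluster 4 and in 56.0% of cells of WT cluster 8.

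LNCPRESS1 was 1.38-fold lower (1.30 to 1.47) in KO at day 6 and 1.86-fold lower (1.80 to 1.91) at day 0, under the 2-fold limit at both. The day 6 ratio of LNCPRESS1 varied between classes of cells. Over 3 classes of total UMIs per cell it was 0.922, 0.295 and 0.687, from the lowest class to the highest, and so was not ordered by depth. Over the classes of chromosome 20 share it ran from 0.3826 to 0.9235. At day 0 its ratio stayed between 0.5005 and 0.540 over the POU5F1 classes, and ran from 0.503 to 0.654 over the classes of total UMIs. It was 0.694 in cells with a chromosome 20 share of 2.6 to 3% and 0.637 at 3% or more. With KO cells of 3% or more alone, the log2 ratio of LNCPRESS1 at day 0 was -0.62, against -0.89 with all cells. The part of the chromosome 20 share was not tested. SIRT6, which LNCPRESS1 is known to bind, did not reach 10 CPM in either comparison of KO with WT. ESRG was 1.84-fold lower (1.69 to 2.004) in KO at day 6, with a ratio of 0.955 (0.938 to 0.971) at day 0. Its day 6 ratio ran from 0.199 to 0.669 over the 3 classes of total UMIs. The part of depth in these differences was not tested. LINC00678 had a ratio of 0.963 (0.932 to 0.996) at day 0. The direction at day 0 of ESRG and of LINC00678 was not the same under every setting: ESRG turned to a log2 ratio of 0.07 with KO cells of 3% or more from chromosome 20, and LINC00678 to 0.01 under TMM scaling.

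NEAT1 went in opposite directions at the 2 days. It was at 345 CPM (341 to 349.6) in KO and 1433 CPM (1422 to 1443) in WT at day 6, against 285 CPM (281 to 289) in KO and 217 CPM (214 to 221) in WT at day 0. The WT library of day 6 stood alone, and the other 3 lay within 217 to 345 CPM. It was 4.15-fold lower (4.09 to 4.21) in KO at day 6 and 1.31-fold higher (1.29 to 1.34) at day 0. Day 6 was 1.21-fold higher (1.19 to 1.23) than day 0 in KO and 6.59-fold higher (6.48 to 6.70) in WT. In thinned cells 49.6% of KO and 81.8% of WT cells had a NEAT1 UMI at day 6, against 50.1% of KO and 42.4% of WT cells at day 0. Free RNA would give 15.1% in KO and 33.7% in WT at day 6, and 11.9% in KO and 7.05% in WT at day 0. The ratio of KO to WT at day 6 stayed between 0.168 and 0.464 over all classes of POU5F1 UMIs, CDKN1A UMIs, mitochondrial share, total UMIs and chromosome 20 share. At day 0 it ranged from 0.817 to 1.96 over the same kinds of class.

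The gene whose pattern over the 4 libraries was nearest to NEAT1, of 9682 genes, was CDKN1A (p21, a cell cycle inhibitor), by Euclidean distance of centred log2 levels. CDKN1A was at 68.9 CPM in KO and 292 CPM in WT at day 6, against 64.8 CPM and 45.1 CPM at day 0. CYTOR, a long non-coding RNA, and COL1A1, a collagen of mesenchymal cells, came next, with CYTOR at 19.8 CPM in KO and 78.7 CPM in WT at day 6, against 12.9 CPM and 11.2 CPM at day 0. COL1A1 was at 94.6 CPM in KO and 369 CPM in WT at day 6, against 78.6 CPM and 69.9 CPM at day 0. Summed mesenchymal markers, which include COL1A1, were at 188 CPM in KO and 733 CPM in WT at day 6, against 139 CPM and 144 CPM at day 0. LUM and POSTN were at 0 in WT at day 6, and 4 of 9 of these markers reached 10 CPM there, against 3 of 9 in KO. The part of these cells or genes in the NEAT1 difference was not tested.

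NEAT1 was higher in cells with CDKN1A UMIs than in cells without in every library. At day 6, cells with 0, 1 to 2 and 3 or more CDKN1A UMIs had 294, 553 and 1113 CPM of NEAT1 in KO, and 928, 1406 and 2400.0 CPM in WT. At day 0 the same classes had 259, 402 and 756 CPM in KO, and 192, 360.1 and 428 CPM in WT, where the intervals of the upper classes overlapped. Within these classes the KO level at day 6 was 0.317 to 0.464 of the WT level. The classes are ranges of UMIs and not equal CDKN1A levels, and the part of CDKN1A in the difference was not tested. MIR205HG also differed by class at day 0, with 89.7, 151 and 224 CPM in KO and 126, 253 and 522 CPM in WT. In WT at day 6 it had 21.3, 33.7 and 58.9 CPM. In KO at day 6 the highest class held 82 cells and 1 UMI of MIR205HG, so no order can be read there.

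**Figure D5:**
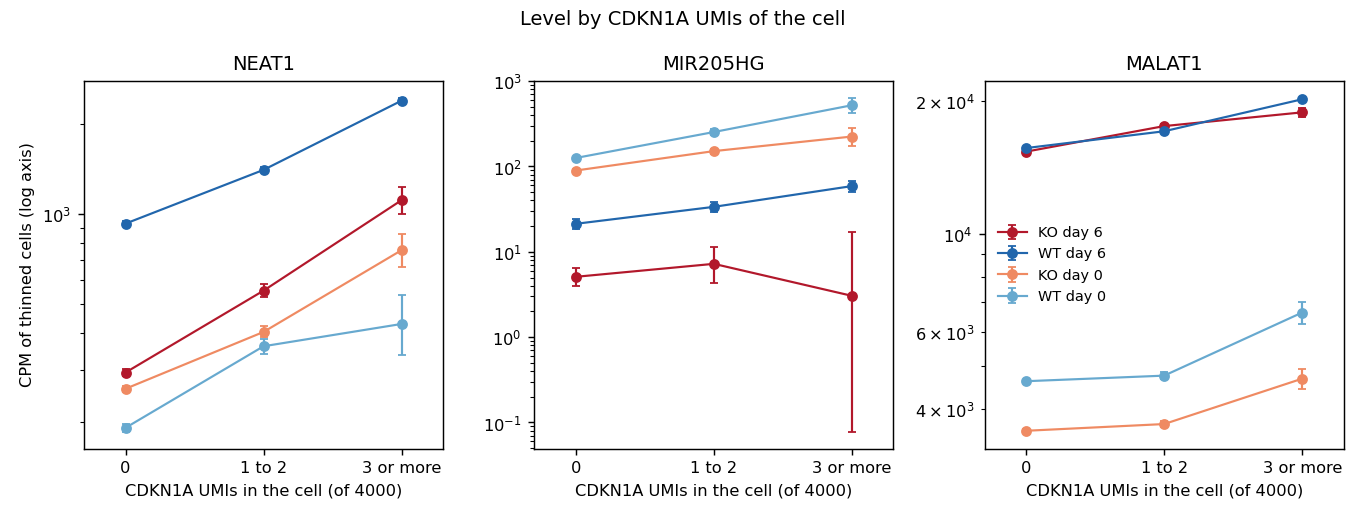
Level of NEAT1, MIR205HG and MALAT1 (CPM of cells thinned to 4000 UMIs, log axes of different range) by the number of CDKN1A UMIs in the cell, for each library, with exact Poisson 95% intervals. NEAT1 is lowest in each library in cells with 0 CDKN1A UMIs and reaches 1113 CPM in KO and 2400.0 CPM in WT at day 6 in the highest class.

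NEAT1 varied widely between clusters of a library. In KO at day 6 it was highest in cluster 9 (3254 CPM, 68 cells), and lowest in cluster 3, led by cell division genes (165 CPM). Cluster 9 is left unnamed: 7 of 9 mesenchymal markers were at least 2-fold higher in it, but KRT17, NR2F1, POU3F3 and POU3F2 stood beside COL3A1 and COL1A1 among its leading genes. MALAT1 was also highest in KO cluster 9, at 36640 CPM. In WT at day 6 NEAT1 was highest in cluster 6 (3392 CPM, 519 cells, led by ANXA1, CRYAB and FLNC) and lowest in cluster 2 (575 CPM). In KO at day 0 the mesenchymal-like cluster 8 (54 cells) had 2236 CPM of NEAT1 and 9565 CPM of MALAT1. In single cells NEAT1 and MALAT1, neighbours on chromosome 11, had a Pearson correlation of 0.38 in KO and 0.31 in WT at day 6, and of 0.38 in KO and 0.32 in WT at day 0, over 4419 to 7275 cells that share a library. Among the other pairs of the RNAs that were computed, the highest value was 0.16, between LINC01405 and NEAT1 in WT at day 6. No pair with LINC00458 was computed, and in KO at day 6 no other pair among the RNAs was.

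MALAT1 did not follow NEAT1 between genotypes. It was 1.11-fold lower (1.11 to 1.12) in KO at day 6 and 1.33-fold lower (1.32 to 1.33) at day 0, both under the size rule. Over 3 classes of total UMIs the MALAT1 ratio of KO to WT ran from 0.873 to 1.22 at day 6 and from 0.547 to 0.919 at day 0. Its direction at day 6 was thus not the same in every class. Of the other measured neighbours of NEAT1 within 300000 bases, EHBP1L1 was lower (ratio 0.489) and POLA2 higher (ratio 2.06) in KO at day 6, and none was called at day 0. By RNA, none of the 15 measured paraspeckle proteins and NEAT1 processing factors was called between KO and WT at either day. Among all measured genes 5.1% were called at day 6 and 0.924% at day 0, so this count is near its background. CPSF6 had the largest ratio of the list, 1.82 at day 6. SFPQ, a core paraspeckle protein, was at 144 CPM in KO and 87.7 CPM in WT at day 6, against 198 CPM and 222 CPM at day 0. In WT, SFPQ, CPSF6 and HNRNPK were lower at day 6 than at day 0 (3 of 15, near the 19.4% of all genes), with a median log2 ratio of -0.44 for the list and -0.35 for all genes.

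MIR205HG was 5.45-fold lower (4.90 to 6.07) in KO at day 6 and 1.37-fold lower (1.33 to 1.41) at day 0. In thinned cells 1.83% of KO and 6.91% of WT cells had a UMI at day 6, against 25.2% of KO and 31.5% of WT cells at day 0. Free RNA would give 0.361% in KO and 1.39% in WT at day 6, and 5.05% in KO and 6.70% in WT at day 0. With KO cells of 3% or more from chromosome 20, the log2 ratio at day 0 was 0.02, so its direction at day 0 is not stable, and at day 6 it was -1.76. In WT at day 6, cluster 6, which also had the most NEAT1 and LINC01405, had 135 CPM, and no other WT cluster exceeded 38.2 CPM. Of the epithelial genes listed with miR-205, 3 were measured between KO and WT and none was called at either day. The share called among all measured genes was 5.1% at day 6 and 0.924% at day 0. Of 9 markers of surface ectoderm or keratinised epithelium, which hold keratins also found in simple epithelium, 4 reached 10 CPM in KO and 4 in WT at day 6, at summed levels of 800.5 CPM in KO and 1542 CPM in WT. TP63, KRT5 and KRT14 had 0 UMIs in both libraries. The part of these genes in the MIR205HG difference was not tested.

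The nearest patterns to the other RNAs were taken over the same 4 libraries and 9682 genes. Any RNA has a nearest gene by this measure, and the distances were unequal. They were 0.188 for LNCPRESS1, 0.226 for MALAT1, 0.238 for ESRG and 0.353 for LINC01405, beside 0.146 for NEAT1. Those of MIR205HG (0.539), LINC00678 (0.620), LINC00458 (0.628) and LINC01356 (0.681) were larger. LCK, a tyrosine kinase, was nearest to ESRG, at 0.597 CPM in KO and 2.22 CPM in WT at day 6, against 30.2 CPM and 36.4 CPM at day 0. TDGF1, the Nodal co-receptor, was nearest to LINC00678, at 0.857 CPM in KO and 3.03 CPM in WT at day 6, against 172 CPM and 261 CPM at day 0. GAL, the neuropeptide galanin, was nearest to LINC01356, at 3.49 CPM in KO and 11.9 CPM in WT at day 6, against 49.0 CPM and 105 CPM at day 0. CEBPB, a gene of chromosome 20, was nearest to LNCPRESS1, C9orf135 to LINC00458, TRIML2 to MIR205HG and RNF152 to MALAT1. CCDC169 was nearest to LINC01405, at 1.36 CPM in KO and 8.73 CPM in WT at day 6, against 1.05 CPM and 10.0 CPM at day 0, and SIRT1 came next. Of 10 other long non-coding RNAs described in pluripotent cells and measured at each day, 1 was called at day 0: MIAT, 2.03-fold higher in KO. At day 6, 1 was higher in KO (RMST, 3.88-fold) and 2 were lower (CYTOR, ratio 0.251, and TUNAR, ratio 0.411). Among all measured genes 0.429% were higher and 0.495% lower at day 0, and 3.11% higher and 1.99% lower at day 6. Of 17 widely expressed long non-coding RNAs none was called between KO and WT at either day. The share called among all measured genes was 5.1% at day 6 and 0.924% at day 0. The median log2 ratio of these 17 RNAs was -0.40 at day 6, where that of all genes was 0.25.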

How the data were processed

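The authors deposited UMI counts, not normalized, for every gene and barcode of 4 H9 libraries. Cell Ranger 6.1.2 and GRCh38 are named in the submitters' processing notes; the matrix header, as deposited by the authors, names Cell Ranger 4. Cells were called here at 4000 UMIs, 1000 genes and at most 20% mitochondrial UMIs, and doublets were kept. Counts were summed per library and given as CPM of the cells' total; log2 ratios used a prior count of 0.5. No test was run, since each group was 1 library. Ratios have exact conditional binomial intervals, levels exact Poisson intervals and shares exact Clopper-Pearson limits, at 95%, for counting error only. The ratio and size rule were tested on simulated data. For values within a library, each cell was thinned to 4000 UMIs. The profile of free RNA was summed over barcodes of 1 to 50 UMIs and taken as 10% of a cell's UMIs. Clusters were found within each library with scanpy 1.11.5 and leidenalg 0.10.2 (2000 variable genes, 30 components, 15 neighbours, resolution 0.5), without the 9 RNAs; a cluster was named from marker lists where at least 3 markers were 2-fold higher. TMM factors came from edgeR 4.0.16. Positions and transcripts are from GENCODE release 29, joined by Ensembl identifier (34616 of 36601 features). Named genes were the 9 RNAs, the 3 genes nearest to each in pattern and the 4 largest ratios of each list. The RNAs and lists were chosen with earlier results of these data known. Of the listed genes tied to LNCPRESS1, not all are reported here. Near-identical gene copies share reads and their counts are uncertain.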

Additional observations from a re-analysis of the deposited data

Results flagged for a closer look

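NEAT1 differed between KO and WT in opposite directions at the 2 days: the ratio of KO to WT was 0.241 at day 6 and 1.31 at day 0, and both intervals excluded 1. LINC01405 differed between day 6 and day 0 in opposite directions in the 2 genotypes: the ratio of day 6 to day 0 was 0.865 in KO and 1.03 in WT. With 1 library in each group, the difference between the ratios was not tested in either case. Both LINC01405 ratios lay within 1.5 times of 1, and under the alternatives the log2 ratio ran from -0.30 to -0.01 in KO and from -0.01 to 0.46 in WT.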

How the results depend on the processing

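No paired analysis was possible because each group was 1 library. The 36 ratios of the 9 RNAs kept their sign in 302 of 306 recomputed values. The 4 that changed sign were those of ESRG (0.07), LINC00678 (0.01) and MIR205HG (0.02) between KO and WT at day 0, and of LINC01405 between days in WT (-0.01, with mitochondrial shares of 1 to 10%), none of them past the size rule. Without a filter on low values the genes called numbered 2709 (KO against WT, day 6), 1329 (KO against WT, day 0), 5539 (days, KO) and 7734 (days, WT), against 445, 84, 1343 and 2367 with it. The members called at day 6 between KO and WT were then 6, against 3. A 1.5-fold rule gave 1901, 321, 3254 and 4563 genes in the same order. TMM scaling moved the median log2 ratio of all genes by -0.22 (KO against WT, day 6), 0.07 (day 0), 0.14 (days, KO) and 0.45 (days, WT). A total without ribosomal protein, mitochondrial and MALAT1 counts moved it by 0.11 for days in WT. In 16 of the 306 values a ratio moved by more than 1.5 times, among them LINC01405 and MIR205HG with KO cells of 3% or more from chromosome 20; the cause was not tested. Depth limits the day 6 values of LINC00458, LINC00678 and LINC01356.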
